A study of Drosophila melanogaster with 87 samples.

Results

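Brains with *Mettl3* knocked down were compared with control brains 24 h after a heat shock (HS) of 30 min at 38.5 °C, to ask how the transcriptomes of the genotypes differ after recovery at 25 °C. The comparison used 6 of the 87 libraries of the series, taken by tissue, genotype and time in the sample labels: 3 from *Mettl3* RNAi brains and 3 from control brains. All flies were *Drosophila melanogaster* males collected 1 to 2 days after eclosion and heat shocked at the age of 6 days, and both genotypes carried DaGal4, which drives expression in nearly every cell from the *daughterless* promoter. *Mettl3* RNAi flies expressed the hairpin TRiP.HMS06028 in a *y v* stock, and control flies a hairpin against mCherry, a fluorescent protein that flies lack, in a *y sc v sev* stock. Both hairpins sat at attP2. Knockdown rested on a single hairpin, so an effect of the stock or of the hairpin cannot be told apart from one of *Mettl3* loss. Each library was made from polyA RNA of pooled dissected brains.

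*N*6-methyladenosine (m6A) is placed on mRNA by a writer complex whose catalytic subunit is Mettl3, bound to Mettl14 and to a set of adaptor proteins, and is recognized by reader proteins of the YTH family. In the fly, Ythdc1 is the nuclear reader and Ythdf the cytoplasmic reader, and the mark is most abundant in the nervous system. Heat shock activates the transcription factor Hsf, which drives the genes of molecular chaperones such as Hsp70, and their transcripts decay during recovery.

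The libraries held 21612688, 21913677 and 23954842 counted reads in *Mettl3* RNAi brains and 20381211, 23181232 and 21979708 in control brains. Values are CPM, read counts scaled to a common library size with TMM factors, and fold changes are log2 of *Mettl3* RNAi over control. Of 9756 genes tested with edgeR's quasi-likelihood test, 897 (9.19%) were called at a Benjamini-Hochberg adjusted p under 0.05, 520 higher (5.33%) and 377 lower (3.86%) in *Mettl3* RNAi brains. The shares of 5.33% and 3.86% are the background for every gene list below. The median log2 fold change of all genes was -0.0025. In 2782 genes (28.5%) the CPM of the genotypes did not overlap, and all 897 called genes were among these. The study describes its replicates as biological, with crosses from different parents. Fewer genes were called when a library was left out: 395 without *Mettl3* RNAi replicate 1, 419 without replicate 2 and 540 without replicate 3. Without control replicates 1, 2 and 3 the counts were 696, 504 and 684. Such fits hold fewer libraries, and the cause of the lower counts was not tested. A fit that took the spread from all 23 brain libraries of both genotypes in replicates 1 to 3 called 218 genes.

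Most called changes were small. Called rises had a median log2 fold change of 0.37 and called falls one of -0.20. A change of at least 1 on the log2 scale was found for 72 of the called rises and for 21 of the called falls, and 341 rises and 327 falls were smaller than 0.5. The called rises had a median of 39.7 CPM in control brains, and the called falls one of 146 CPM.

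**Figure D1:**
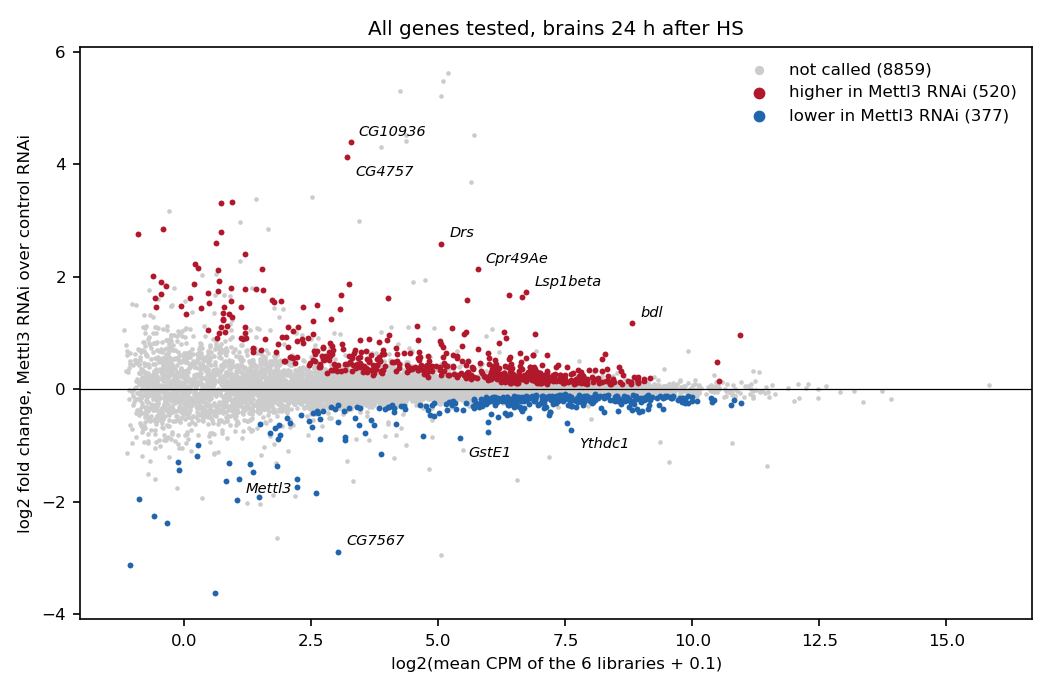
Each point is 1 of the 9756 genes tested, with its mean level over the 6 libraries (log2 of CPM plus 0.1) on the horizontal axis and the log2 fold change, *Mettl3* RNAi over control, on the vertical axis. Called genes are red (520 higher) or blue (377 lower). The rises reach further from 0 than the falls, and the called falls crowd close below 0 at high levels.

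*Mettl3* itself (3R 24032157 to 24034257, dm6) was expressed at a low level. It had 1.01, 0.59 and 0.80 CPM in *Mettl3* RNAi brains, against 3.5, 2.60 and 3.28 CPM in control brains. The groups did not overlap, and the transcript fell to 25.5% of the control mean (log2 fold change -1.96 ± 0.24, SE, adjusted p = 0.00303 by edgeR's quasi-likelihood test). Its partner *Mettl14* had 5.88, 5.71 and 7.28 CPM in *Mettl3* RNAi brains, against 5.79, 5.99 and 6.56 CPM in control brains, and these overlapped.

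Of the other writer genes, *nito* fell and the rest were not called. *nito* encodes Spenito, an RNA-binding adaptor of the complex, and had 30.9, 31.5 and 31.2 CPM in *Mettl3* RNAi brains, against 42.0, 40.1 and 38.9 CPM in control brains. The ranges lay apart, with a log2 fold change of -0.37 ± 0.05 (SE) and an adjusted p of 0.0054 by edgeR's quasi-likelihood test. On the other strand 16.6% of its exon bases are shared with neighbouring genes, and the sources used here do not state whether counting used the strand. *fl(2)d*, the fly WTAP, had 99.1, 96.9 and 102 CPM in *Mettl3* RNAi brains, against 108, 111 and 105 CPM in control brains. It just missed the threshold, at a log2 fold change of -0.12 ± 0.03 (SE; adjusted p = 0.0515, edgeR's quasi-likelihood test). *vir*, *Flacc* and *Hakai*, which encode further adaptors, had log2 fold changes of 0.03, -0.08 and 0.14 and overlapping groups.

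The nuclear reader showed the clearest change of the pathway after *Mettl3*. *Ythdc1* (3L 3370451 to 3374170) had 144, 147 and 154 CPM in *Mettl3* RNAi brains, against 240, 250 and 238 CPM in control brains. Every *Mettl3* RNAi library was far below every control library, at 61.0% of the control mean (log2 fold change -0.71 ± 0.03, SE, adjusted p = 4.36e-05 by edgeR's quasi-likelihood test). The cytoplasmic reader *Ythdf* had 80.3, 78.1 and 79.6 CPM in *Mettl3* RNAi brains, against 85.0, 80.8 and 80.9 CPM in control brains, with an adjusted p of 0.404 in the same edgeR test. *Fmr1*, an RNA-binding protein that has been reported to read m6A in flies, had 101, 101 and 102 CPM in *Mettl3* RNAi brains, against 113, 109 and 108 CPM in control brains. That fall of -0.11 ± 0.03 (SE) on the log2 scale was just within the threshold, with an adjusted p of 0.0376 by edgeR's quasi-likelihood test, and was called in 3 of 15 alternatives.

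**Figure D2:**
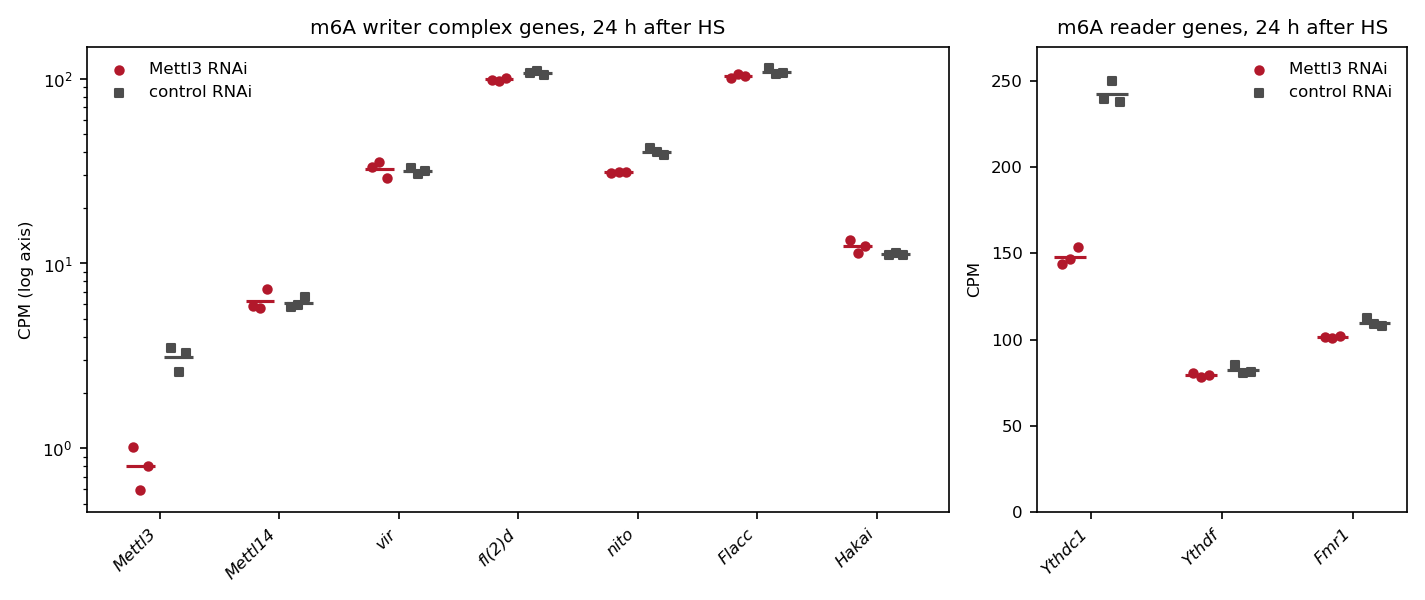
CPM of the 7 writer genes (left, log axis) and of the 3 reader genes (right, linear axis) in single libraries, *Mettl3* RNAi as red circles and control as grey squares, with bars at the group means. *Mettl3*, *nito*, *Ythdc1* and *Fmr1* were called lower, and *Ythdc1* lies between 144 and 154 CPM in *Mettl3* RNAi brains, below the 238 to 250 CPM of control brains.

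No *Hsp70* gene passed the test at this time. The 6 *Hsp70* copies, which encode the main inducible chaperone, summed to 164, 156 and 155 CPM in *Mettl3* RNAi brains and to 173, 150 and 152 CPM in control brains. Their log2 fold changes ran from -0.01 to 0.02, with SEs of 0.03 for *Hsp70Bb* up to 0.27 for *Hsp70Ab*. These copies are nearly identical and can share reads, so the level of a single copy is uncertain. *Hsp68*, a relative of *Hsp70*, had 13.1, 15.2 and 12.7 CPM in *Mettl3* RNAi brains, against 19.9, 13.6 and 15.4 CPM in control brains. Its log2 fold change of -0.25 ± 0.14 (SE) was not called (adjusted p = 0.348, edgeR's quasi-likelihood test), and none of the 6 genes tested in the list of *Hsp68* and *Hsc70* cognates was.

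Among chaperone partners and small heat shock proteins, 3 genes passed the test, and none did so under every alternative: *stv* was called in 6 of 15 alternatives, *l(2)efl* in 5 and *CG7409* in 8. *stv* (starvin, a BAG-family cochaperone) was the 1 called of 15 *Hsp90* chaperones and cochaperones, with 110, 105 and 105 CPM in *Mettl3* RNAi brains, against 114, 117 and 126 CPM in control brains. Its log2 fold change was -0.16 ± 0.04 (SE) with an adjusted p of 0.0489 by edgeR's quasi-likelihood test. *DnaJ-1*, an Hsp40 that works with Hsp70, had a log2 fold change of -0.13 ± 0.08 (SE), and *Hsf* one of 0.04 ± 0.04, neither called. Of 10 small heat shock protein genes, *l(2)efl* (4.23, 4.72 and 4.44 CPM in *Mettl3* RNAi brains, against 3.02, 3.39 and 3.05 CPM in control brains) and *CG7409* (9.01, 7.26 and 8.33 CPM in *Mettl3* RNAi brains, against 5.60, 6.38 and 4.6 CPM in control brains) rose. Both are weakly expressed, and *l(2)efl* shares 10.1% of its exon bases with a gene on the other strand. Without single libraries 0 or 1 of the 10 small heat shock protein genes was called, and none was in the fit of 23 libraries.

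Genes that respond to the heat shock itself were counted from other libraries. In control replicates 4 to 6, which were not used at 24 h, 397 genes were at least 2-fold higher directly after HS than before, and 185 of these were tested at 24 h. Of them 14 were higher (7.57%, against 5.33% of all genes) and 3 lower (1.62%, against 3.86%) in *Mettl3* RNAi brains. In all 9.19% were called, which equals the share over all genes, and their median log2 fold change was 0.09. Of 388 tested genes lowered at least 2-fold by HS, 1 was higher (0.258%) and 3 were lower (0.773%), with a median of -0.01. That is 1.03% called, against 9.19% of all genes. The tested raised and lowered genes had medians of 1.61 and 6.46 CPM in control brains, against 20.7 CPM for all genes tested. The part of level in these counts was not tested.

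The 12 largest rises began with a pair of genes that were nearly silent in control brains. *CG10936* (2R 17604951 to 17639138) had 13.7, 21.8 and 19.3 CPM in *Mettl3* RNAi brains, against 1.36, 0.97 and 0.27 CPM in control brains, 21.1-fold higher (log2 fold change 4.40 ± 0.35, SE, adjusted p = 0.00048, edgeR's quasi-likelihood test). *CG4757* (3R 11161207 to 11163498) had 20.2, 19.6 and 12 CPM in *Mettl3* RNAi brains, against 0.88, 1.06 and 1.00 CPM in control brains, 17.5-fold higher (log2 fold change 4.13 ± 0.24, SE). The lowest *Mettl3* RNAi library stood far above the highest control library for both genes.

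Next came *Drs*, which encodes the antifungal peptide drosomycin. It had 67.0, 68.4 and 35.2 CPM in *Mettl3* RNAi brains, against 7.25, 14.3 and 6.65 CPM in control brains. The ranges lay apart and *Mettl3* RNAi replicate 3 was the lowest of its group (log2 fold change 2.59 ± 0.35, SE, adjusted p = 0.00443, edgeR's quasi-likelihood test). *Drs* (3L 3369556 to 3369942) is the neighbour of *Ythdc1*, 508 bases away, and shares no exon bases with it. A link between the rise of *Drs* and the fall of *Ythdc1* was not tested.

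Well expressed and tightly measured rises followed. *ALiX*, a component linked to endosomal sorting, had 129, 124 and 130 CPM in *Mettl3* RNAi brains, against 38.4, 39.6 and 41.6 CPM in control brains. *HPS4*, a subunit of a complex for the making of lysosome-related organelles, had 152, 152 and 154 CPM in *Mettl3* RNAi brains, against 49.9, 49.4 and 46.6 CPM in control brains. Both were over 3-fold higher with SEs of 0.04 and 0.03 (log2 fold changes 1.68 and 1.65) and had the smallest adjusted p-values next to *bdl*, 2.62e-07 and 2.52e-07 by edgeR's quasi-likelihood test. *HPS4* lies 44435 bases from *CG10936* on 2R and shares 14.9% of its exon bases with a gene on the other strand.

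The other rises of this rank were of mixed kind. *Cpr49Ae*, a cuticular protein, had 68.2, 80.7 and 118 CPM in *Mettl3* RNAi brains, against 19.9, 19.7 and 20.9 CPM in control brains. *Lsp1beta*, a storage protein of larval haemolymph made by fat body, had 159, 144 and 183 CPM in *Mettl3* RNAi brains, against 34.4, 44.5 and 67.9 CPM in control brains. *Dnah3*, a dynein heavy chain of the axoneme, had 4.64, 5.12 and 4.6 CPM in *Mettl3* RNAi brains, against 1.75, 1.36 and 1.64 CPM in control brains. None of these overlapped between genotypes. *CG8927*, *CG30424*, *CG31036* and *CG6409*, for which the files give no function, had log2 fold changes of 2.14, 1.87, 1.69 and 1.63.

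The 12 largest falls were smaller than the 12 largest rises. *CG7567* (3R 29587237 to 29588104) had 2.07, 1.32 and 2.34 CPM in *Mettl3* RNAi brains, against 8.42, 16.8 and 17.3 CPM in control brains (log2 fold change -2.89 ± 0.32, SE, adjusted p = 0.00188, edgeR's quasi-likelihood test). *CG10725* had 2.21, 2.99 and 2.55 CPM in *Mettl3* RNAi brains, against 7.83, 13.6 and 6.47 CPM in control brains. *CG11368* had 1.29, 3.36 and 1.63 CPM in *Mettl3* RNAi brains, against 4.72, 7.04 and 9.11 CPM in control brains. The groups did not overlap in any of these, and the control libraries varied by up to about 2-fold.

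Detoxification enzymes made up a further group of the 12 largest falls. The cytochromes P450 *Cyp4e3*, *Cyp6a17* and *Cyp4p1* had log2 fold changes of -1.37, -1.14 and -0.88. *GstE1*, a glutathione transferase, had 29.6, 31.0 and 30.2 CPM in *Mettl3* RNAi brains, against 56.2, 53.7 and 56.3 CPM in control brains. It was the most evenly measured of these 12 falls (log2 fold change -0.87 ± 0.05, SE, adjusted p = 7.04e-05, edgeR's quasi-likelihood test). The noncoding RNAs *lncRNA:CR44506* and *lncRNA:CR44417* had log2 fold changes of -1.60 and -0.90, and *CG14153*, *Achl* and *CG9451* ones of -0.85, -0.83 and -0.78.

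**Figure D3:**
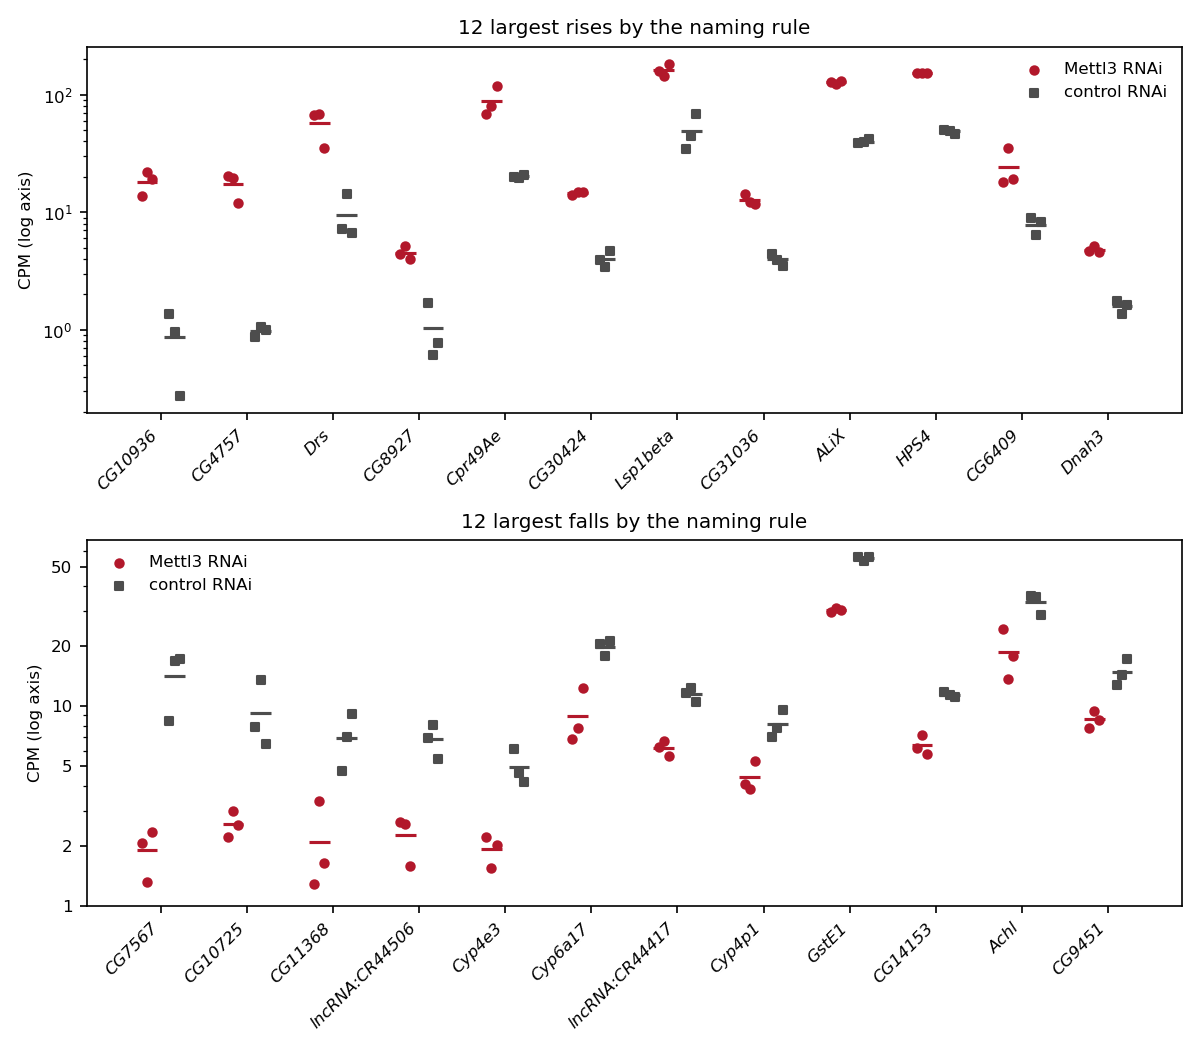
CPM in single libraries (log axes) of the 12 largest called rises (top) and the 12 largest called falls (bottom) whose mean count reached 100 in either genotype and whose groups did not overlap, *Mettl3* RNAi as red circles and control as grey squares, with bars at the group means. *CG10936* spans 13.7 to 21.8 CPM in *Mettl3* RNAi brains and 0.27 to 1.36 CPM in control brains, and *CG7567* 1.32 to 2.34 CPM in *Mettl3* RNAi brains and 8.42 to 17.3 CPM in control brains.

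As families, the detoxification enzymes moved in both directions. Of 66 genes tested on the cytochrome P450 list, 10 rose (15.2%) and 6 fell (9.09%), with a median log2 fold change of 0.10. Over all genes 5.33% were called higher and 3.86% lower. The list was made by symbol, and 1 of the 10 that rose, *Cyp1*, encodes a cyclophilin and not a P450 (log2 fold change 0.19). Without single libraries 8 to 11 rose and 2 to 5 fell, the fewest falls without *Mettl3* RNAi replicate 1, and in the fit of 23 libraries 5 rose and 3 fell. Within 1 cluster on 2R, *Cyp6a17* fell to 6.85, 7.75 and 12.3 CPM in *Mettl3* RNAi brains, against 20.4, 17.9 and 21.3 CPM in control brains. *Cyp6a9*, 3616 bases from it, had 21.5, 20.8 and 22.3 CPM in *Mettl3* RNAi brains, against 11.4, 11.6 and 10.2 CPM in control brains, and *Cyp6a20* and *Cyp6a8* rose by 0.49 and 1.78 on the log2 scale. Opposite changes of close relatives also held for *Cyp4ac2* (-0.81) and *Cyp4ac3* (0.46), which lie 42 bases apart, where reads shared between copies could be split either way in counting.

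*Cyp6g1*, known for its part in resistance to the insecticide DDT, rose to 97.7, 124 and 95.1 CPM in *Mettl3* RNAi brains, against 52.8, 53.9 and 61.1 CPM in control brains. *Cyp18a1*, which inactivates ecdysone, had a log2 fold change of 0.62 ± 0.09 (SE). Of 28 glutathione transferases, 5 rose (17.9%, against 5.33% of all genes) and 3 fell (10.7%, against 3.86%). *GstE2*, the neighbour of *GstE1*, was at -0.21 and *GstE11* at 1.00. Without single libraries 0 to 3 rose and 1 to 2 fell. All 4 called of 18 UDP-glycosyltransferases rose (22.2%), with *Ugt35A1* the highest at 0.69 ± 0.11 (SE), and the median of that family was 0.25.

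The cuticular protein genes that were called were all higher. Of 120 cuticular protein genes, 20 passed the filter on low counts. Of these 8 rose (40%, against 5.33% of all genes) and none fell, at a median log2 fold change of 0.56. A gene expressed in *Mettl3* RNAi brains alone could pass this filter, and 34 of the 120 had no read in any of the 6 libraries. *Cpr72Ec* had 176, 133 and 165 CPM in *Mettl3* RNAi brains, against 75.6, 86.2 and 78.3 CPM in control brains. Summed over the family, levels were 338, 303 and 376 CPM in *Mettl3* RNAi brains and 159, 178 and 164 CPM in control brains, with no overlap. *Cpr72Ec* and *Cpr49Ae*, both called higher, made up most of that sum in every library. Without single libraries 5 to 7 cuticular protein genes rose, and in the fit of 23 libraries 4 of 36 tested did. Odorant-binding proteins, small secreted carriers of hydrophobic molecules, were split, with 2 of 20 higher (*Obp99a* and *Obp99c*) and 2 lower (*Obp56a* and *Obp49a*). That split was not steady: none was called without *Mettl3* RNAi replicate 1, without replicate 3 or in the fit of 23 libraries.

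The 5 called genes of the immune lists rose. *Drs* was the 1 called of 21 antimicrobial peptides and Bomanins, 4.76%, which is below the 5.33% of all genes called higher. The median log2 fold change of the list was 0.36, and without single libraries 1 to 4 of its genes were called, 4 without *Mettl3* RNAi replicate 3 and 3 without control replicate 2. Of 17 genes of peptidoglycan recognition and the Toll and Imd pathways, 4 rose (23.5%) and none fell, with a median of 0.14. *PGRP-LC*, the receptor at the head of the Imd pathway, had 34.3, 29.2 and 31.6 CPM in *Mettl3* RNAi brains, against 23.7, 25.4 and 25.4 CPM in control brains. *nec* (necrotic, a serpin that restrains Toll signalling) had 72.0, 75.3 and 71.1 CPM in *Mettl3* RNAi brains, against 56.3, 58.4 and 61.9 CPM in control brains, and *PGRP-SD* and *PGRP-LA* had log2 fold changes of 0.63 and 0.24. The count of called genes was not steady: without *Mettl3* RNAi replicate 3, or without any 1 of the control libraries, 1 gene of this list was called, and none was in the fit of 23 libraries. Markers of hemocytes, the blood cells, summed to 552, 552 and 506 CPM in *Mettl3* RNAi brains and to 609, 589 and 610 CPM in control brains, and *Hml* (-0.51) and *Pxn* (-0.12) were called lower.

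Of 36 tested neuropeptide and peptide-signalling genes, 11 fell by small amounts (30.6%), 1 rose (2.78%) and 24 were not called, with a median log2 fold change of -0.08. Over all genes 3.86% were called lower and 5.33% higher. *Tk*, the precursor of tachykinins, had 76.5, 76.0 and 75.5 CPM in *Mettl3* RNAi brains, against 93.5, 88.9 and 92.4 CPM in control brains. *Pdf*, the peptide of the clock neurons, had 83.9, 83.3 and 84.3 CPM in *Mettl3* RNAi brains, against 99.5, 93.5 and 101 CPM in control brains. The largest fall of this list was that of the weakly expressed *CNMa*, with 1.65, 1.04 and 1.34 CPM in *Mettl3* RNAi brains, against 2.48, 3.26 and 4.33 CPM in control brains. *AstA*, *CCHa1*, *Gpb5*, *Mip*, *sNPF*, *Nplp1*, *Orcokinin* and the receptor gene *SPR* made up the rest, at log2 fold changes between -0.38 and -0.14.

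*Proc*, the precursor of proctolin, was the exception. It had 120, 114 and 126 CPM in *Mettl3* RNAi brains, against 101, 98.8 and 90.4 CPM in control brains (log2 fold change 0.31 ± 0.05, SE, adjusted p = 0.00857, edgeR's quasi-likelihood test). Without single libraries 5 to 7 genes of the list fell, and in the fit of 23 libraries *Proc* was called and none of the falls was. In bulk tissue, fewer cells of a type and less RNA per cell cannot be told apart. Markers of neurons summed to 10490, 10530 and 10490 CPM in *Mettl3* RNAi brains, against 10940, 10790 and 10480 CPM in control brains, with overlap, and their part in these counts was not tested.

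Of 25 voltage-gated channel genes, 7 fell (28%, against 3.86% of all genes), 1 rose (4%, against 5.33%) and 17 were not called, at a median of -0.10. *Elk*, a potassium channel of the eag family, had 58.1, 60.3 and 60.7 CPM in *Mettl3* RNAi brains, against 85.1, 88.2 and 79.3 CPM in control brains. It fell by 0.50 ± 0.04 (SE) on the log2 scale, more than *Shab*, *Ca-alpha1T*, *Shaw*, *eag*, *slo* and *Teh2*, at -0.23 to -0.12. *Teh1*, an auxiliary subunit of the sodium channel Para, rose to 149, 152 and 152 CPM in *Mettl3* RNAi brains, against 117, 108 and 108 CPM in control brains. Without single libraries 4 to 7 fell, and in the fit of 23 libraries 1 gene fell and 1 rose.

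Transmitter receptors were split evenly. Of 35 genes, 7 rose (20%, against 5.33% of all genes) and 7 fell (20%, against 3.86%). Falls were found for nicotinic receptor subunits, the GABA-A subunit *Rdl*, NMDA receptor subunits and muscarinic receptors: *nAChRalpha5* had 422, 426 and 431 CPM in *Mettl3* RNAi brains, against 572, 576 and 544 CPM in control brains, *nAChRalpha6* 411, 471 and 463 CPM in *Mettl3* RNAi brains, against 594, 592 and 565 CPM in control brains. Rises were found for the dopamine receptors *Dop1R1*, *Dop1R2* and *DopEcR*, the serotonin receptors *5-HT2A* and *5-HT7*, *GABA-B-R3* and *Lcch3*, at log2 fold changes between 0.17 and 0.40. *GABA-B-R3* was the largest, with 180, 182 and 184 CPM in *Mettl3* RNAi brains, against 142, 137 and 134 CPM in control brains. The kinds were grouped after the values were seen. Without single libraries 3 to 5 genes rose and 3 to 6 fell, and in the fit of 23 libraries 1 rose and 1 fell.

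Genes of synaptic wiring moved both ways. Of 31 *dpr* and *DIP* genes, which encode paired cell surface receptors of synaptic partners, 7 rose (22.6%) and 3 fell (9.68%). Over all genes 5.33% were called higher and 3.86% lower. *dpr17* had 109, 112 and 112 CPM in *Mettl3* RNAi brains, against 85.8, 83.4 and 79.5 CPM in control brains, and *dpr13* 86.5, 87.1 and 83.5 CPM in *Mettl3* RNAi brains, against 101, 98.9 and 96.7 CPM in control brains. Of 31 genes of axon guidance and cell recognition, 4 rose (*kek3*, *unc-5*, *kek1* and *Dscam1*) and 6 fell (*Sema2b*, *Nlg2*, *Sema1a*, *Dscam3*, *Fas2* and *NetB*), 12.9% and 19.4%. *kek3* had 162, 171 and 176 CPM in *Mettl3* RNAi brains, against 118, 107 and 108 CPM in control brains, and *Sema2b*, a secreted semaphorin, 93.2, 89.1 and 92.3 CPM in *Mettl3* RNAi brains, against 122, 112 and 113 CPM in control brains. Of 18 genes of presynaptic release, *Syx1A*, *Rim* and *EndoA* fell (16.7%), by 0.23 at the most for *Syx1A*. Without single libraries 4 to 7 *dpr* and *DIP* genes rose and 1 to 4 fell, 3 to 5 guidance genes rose and 3 to 6 fell, and 1 or 2 presynaptic genes fell. In the fit of 23 libraries 3 *dpr* and *DIP* genes rose and none fell, 2 guidance genes rose and 1 fell, and no presynaptic gene was called.

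In the Egfr, Ras and MAPK list, 7 of 24 genes rose (29.2%, against 5.33% of all genes) and 2 fell (8.33%, against 3.86%), at a median of 0.02. The rises took in the receptor *Egfr*, the adaptor *drk*, the kinase *rl* (the fly ERK), the transcription factor *pnt*, the protease *rho* that releases the ligand, and the feedback inhibitors *sty* and *kek1*. *sty* had 145, 146 and 147 CPM in *Mettl3* RNAi brains, against 122, 121 and 124 CPM in control brains (log2 fold change 0.25 ± 0.02, SE, adjusted p = 0.000738, edgeR's quasi-likelihood test). The ligand *spi* and the phosphatase *csw* were lower, at -0.12 and -0.19. Without single libraries 2 to 5 genes rose, the fewest without *Mettl3* RNAi replicate 1, and the fit of 23 libraries called none.

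In the clock list 1 gene of 15 rose (6.67%, against 5.33% of all genes) and 4 fell (26.7%, against 3.86%). *Clk*, the transcription factor at the centre of the clock, had 59.8, 57.5 and 62.2 CPM in *Mettl3* RNAi brains, against 25.0, 30.6 and 35.0 CPM in control brains, 1.98-fold higher (log2 fold change 0.98 ± 0.11, SE, adjusted p = 0.00192, edgeR's quasi-likelihood test). *Pdp1*, *sgg*, *nmo* and *Pdf* fell, by 0.15, 0.15, 0.14 and 0.23 on the log2 scale, and without single libraries 1 to 4 genes fell. *vri*, a target of Clk, was not called and varied between libraries of both genotypes, with 12.9, 17.7 and 37.7 CPM in *Mettl3* RNAi brains, against 15.2, 25.4 and 45.2 CPM in control brains. Time of day of the collections is not given in the sources used here.

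Genes with an m6A signal that depended on *Mettl3* were listed at gene level from head libraries, which share no flies with these brains. The study's own list was made from differential peaks within genes and is not the same list. In heads, 1213 genes had a lower m6A-IP signal over input in *Mettl3* RNAi than in control with the Synaptic Systems (SYS) antibody, in basal conditions or after HS, and 1185 of them were tested at 24 h. Of these 167 rose and 95 fell, 22.1% of the list in all, where 9.19% of all genes were called. Their median log2 fold change was 0.03, against -0.0025 for all genes. Without single libraries 79 to 145 rose and 48 to 87 fell, and in the fit of 23 libraries 45 rose and 18 fell. The basal *Mettl3* RNAi IP libraries behind the list have an antibody label of none and were taken as SYS from their titles. The libraries made with the NEB antibody gave 1504 genes, 1048 of them shared, of which 182 rose and 100 fell at 24 h. Genes on the list were also more highly expressed, with a median of 68.9 CPM in control brains, against 17.9 CPM for the tested genes not on it, and the part of level in the count was not tested.

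Called genes of the groups above were looked up on this list, as a description with no test. All 7 risen genes of the Egfr, Ras and MAPK list were on it and neither of the 2 lowered ones, where 13 of the 24 tested were. Of the transmitter receptors, 6 of the 7 risen and 1 of the 7 lowered were on it, where 18 of the 35 tested were. For *dpr* and *DIP* genes these counts were 5 of 7 and 3 of 3, where 22 of the 31 tested (71%) were on it, and for the neuropeptide list 0 of 1 and 1 of 11, where 2 of the 36 tested were. Of the axon guidance genes, 3 of the 4 risen and 5 of the 6 lowered were on it, where 19 of the 31 tested were. In the clock list these counts were 0 of 1 and 3 of 4, where 5 of the 15 tested were on it. Among voltage-gated channels they were 1 of 1 and 2 of 7, where 13 of the 25 tested were. *Ythdc1*, *fl(2)d* and *stv* were on the list, and *nito*, *Clk* and the *Hsp70* copies were not. Absence from a list at gene level does not show that a transcript lacks m6A. The study reports m6A near the start of *Hsp70* transcripts at baseline, in a peak below its threshold. Of the 24 largest changes by the naming rule, *lncRNA:CR44417* was the 1 on it.

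**Figure D4:**
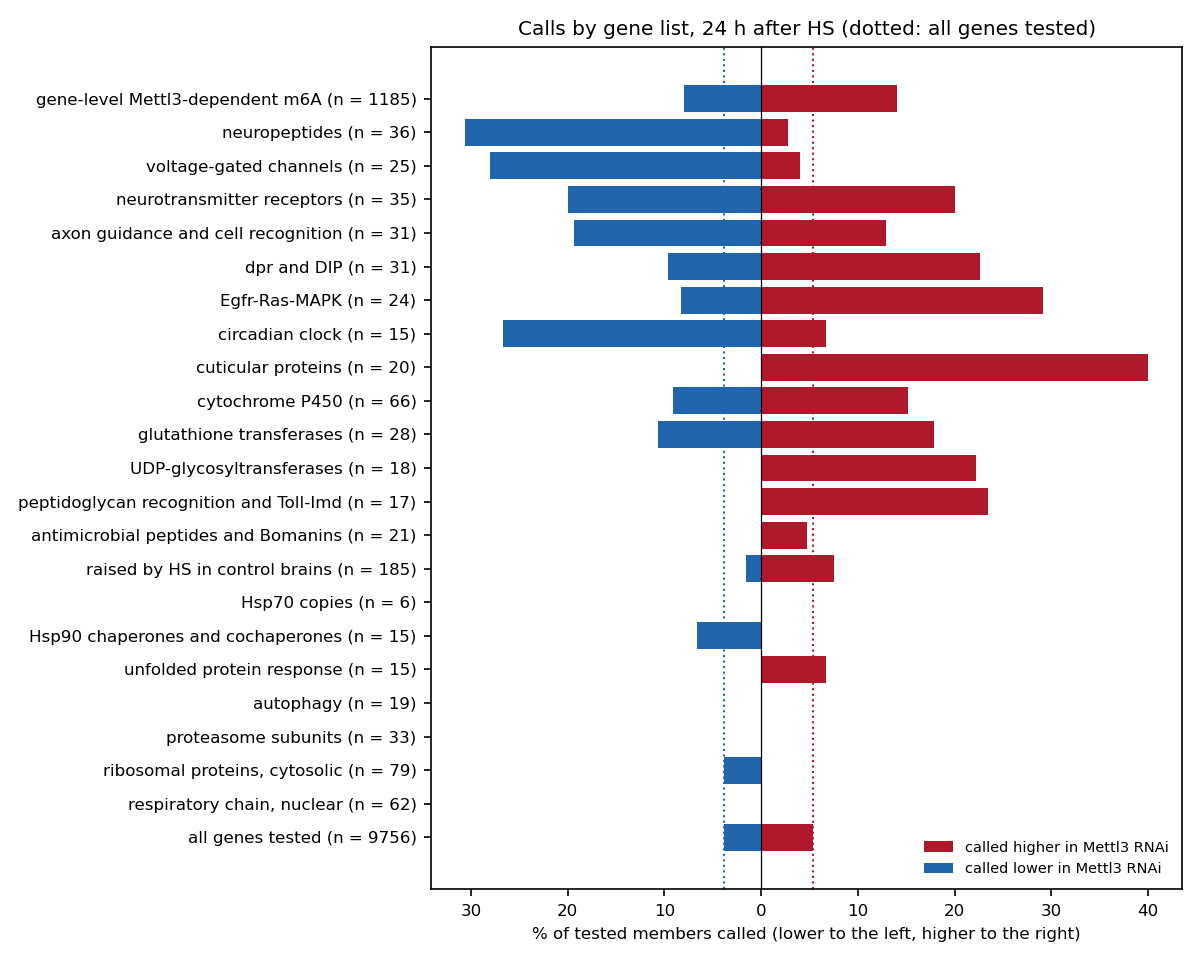
Share of the tested members of each gene list that was called higher (red, to the right) or lower (blue, to the left) in *Mettl3* RNAi brains at 24 h, in percent, with the number tested after each name and dotted lines at the shares over all genes, 5.33% higher and 3.86% lower. Cuticular proteins have rises only, neuropeptides and voltage-gated channels more falls than rises, and *Hsp70* copies no call.

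Several lists showed few or no calls. None of 33 proteasome subunits, 62 nuclear genes of the respiratory chain, 16 genes of the mitochondrial genome, 19 autophagy genes, 12 sex determination genes or 12 genes of the JAK-STAT and JNK pathways was called. Of 79 cytosolic ribosomal protein genes, 3 fell (*RpL24-like*, *RpL34b* and *RpL29*) and the median was -0.05. That count turned on single libraries, with 14 of 80 lower without control replicate 1, none without *Mettl3* RNAi replicate 2 and 1 without any other. Single genes passed in the insulin list (*InR*, 0.27), in the unfolded protein response (*Pdi*, 0.11), in glycolysis (*Hex-C*, 0.40) and among the dosage compensation genes (*lncRNA:roX2*, -0.25). In the list of activity-induced genes *CG14186* fell by 0.45. Of 4 tested genes in a list of stock markers, *y* was called lower (25%, against 3.86% of all genes). It was called in 12 of 15 alternatives. *ImpE1* rose and *Eip71CD* fell in the ecdysone list, at 0.80 and -0.29. Of 229 long noncoding RNAs, 4 rose and 12 fell, and of 112 antisense RNAs 4 rose and 2 fell, whose reads cannot be told apart from those of the sense gene without strand.

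*drpr* and *futsch* were named with the genes above since the study followed them as m6A-bearing genes. Neither was on the gene-level list from the SYS antibody, and *drpr* was on that from the NEB antibody. *drpr*, the engulfment receptor of glia, had 149, 148 and 155 CPM in *Mettl3* RNAi brains, against 135, 136 and 138 CPM in control brains (log2 fold change 0.15 ± 0.03, SE, adjusted p = 0.0153, edgeR's quasi-likelihood test). *futsch*, a microtubule-associated protein of axons, had 2737, 2714 and 2379.9 CPM in *Mettl3* RNAi brains, against 2811, 2637 and 2557 CPM in control brains, and these overlapped.

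A few further rises were chosen after their values were seen, for their small spread or their level. *bdl* (borderless, a cell adhesion protein of the immunoglobulin family) had 633, 620 and 625 CPM in *Mettl3* RNAi brains, against 268, 280 and 279 CPM in control brains. *sesB*, the mitochondrial ADP/ATP carrier, had 2599.5, 2571 and 2653 CPM in *Mettl3* RNAi brains, against 1283, 1382 and 1346 CPM in control brains. *Sema5c*, a transmembrane semaphorin, had 65.5, 60.6 and 61.4 CPM in *Mettl3* RNAi brains, against 31.0, 30.0 and 31.2 CPM in control brains. All were close to 2-fold higher, with adjusted p-values of 2.62e-07, 2.63e-05 and 4.4e-05 by edgeR's quasi-likelihood test. *Mdr65*, a drug exporter of the blood-brain barrier, and *shg*, the fly E-cadherin, had log2 fold changes of 0.40 and 0.55.

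Brains could carry other tissue, and its markers were summed in each library. Glia stood at 5574, 5470 and 5477 CPM in *Mettl3* RNAi brains and at 5572, 5471 and 5508 CPM in control brains, although *repo* and *moody* were called higher and *alrm* and *Gat* lower. Fat body markers summed to 3785, 3989 and 3833 CPM in *Mettl3* RNAi brains and to 2775, 3080 and 3766 CPM in control brains. The groups were parted only narrowly, by 3785 against 3766 CPM. Like *Lsp1beta*, the sum was higher in *Mettl3* RNAi brains. Within that genotype, replicate 2 was highest for the sum and lowest for *Lsp1beta*. *Lsp2* and *apolpp* made up most of that sum and were not called (0.68 and 0.14), the median of the 7 tested markers was 0.06, and the 1 called, the lipid carrier gene *Apoltp*, fell by 0.25 on the log2 scale. Muscle markers summed to 279, 287 and 591 CPM in *Mettl3* RNAi brains and to 202, 344 and 222 CPM in control brains, photoreceptor markers to between 33850 and 40480 CPM in *Mettl3* RNAi brains and between 33190 and 43040 CPM in control brains. Midgut markers, digestive enzymes, stood at 33.1, 1392 and 378 CPM in *Mettl3* RNAi brains and at 134, 434 and 58.8 CPM in control brains, highest in *Mettl3* RNAi replicate 2. The stress-induced Turandot genes summed to 77.4, 49.9 and 53.1 CPM in *Mettl3* RNAi brains and to 73.8, 50.6 and 531 CPM in control brains, highest in control replicate 3. No midgut or Turandot gene was called. Of 12 muscle markers, 11 had a positive log2 fold change, with a median of 0.50. Of them *Act79B* was called higher (8.33%, against 5.33% of all genes). The muscle median was 0.09 without *Mettl3* RNAi replicate 3. All 7 tested midgut markers had positive values, with a median of 3.69. That midgut median was 0.21 without *Mettl3* RNAi replicate 2. The part of fat body, muscle and midgut tissue in the calls was not tested.

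The same contrast was set beside its values at the other times, each from other libraries. It gave 807 calls of 9821 genes (8.22%) directly after HS and 308 of 10281 (3%) at 6 h, where control had 2 libraries. In basal conditions it gave 47 of 9923 genes (0.474%) with replicates 1 to 3 and 128 of 10258 (1.25%) with replicates 4 to 6. Basal *Mettl3* RNAi replicates 1 to 3 were unlike each other, with 1582, 230 and 752 CPM for the summed *Hsp70* copies, against 88.1, 93.8 and 99.7 CPM in control brains. Replicates 4 to 6 held 109, 122 and 131 CPM in *Mettl3* RNAi brains and 90.0, 104 and 101 CPM in control brains. Those were added after the data were seen and are given beside the first.

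Of the genes called at 24 h and tested directly after HS, 440 were called the same way there and 1 the opposite way, 49.2% of the 24 h calls and 55.1% of the HS calls. At 6 h 136 were shared in direction, 15.2% of the 24 h calls and 46.1% of the 6 h calls. In basal replicates 1 to 3 41 were shared, 4.59% of the 24 h calls and 89.1% of the basal calls, and none was opposite. In basal replicates 4 to 6 98 were shared, 10.9% and 77.8%, and 2 were opposite. Regardless of calls, 98.2% of the 24 h genes had the same sign after HS, 85.5% at 6 h, 81.5% in basal replicates 1 to 3 and 87.6% in basal replicates 4 to 6. The share over all genes was 71.0%, 62.7%, 61.8% and 64.5% in the same order. A set of 118 genes was called the same way at HS, 6 h and 24 h (96 higher and 22 lower). Of the 24 h calls, 437 were not called the same way in basal replicates 1 to 3, after HS or at 6 h. Basal replicates 4 to 6 were not used for that count.

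*ALiX* was called at every time, with log2 fold changes of 1.61 in basal replicates 4 to 6, 1.75 after HS, 1.66 at 6 h and 1.68 at 24 h. *HPS4*, *sesB*, *Sema5c* and *Clk* were also called at each of these 4 times. In basal replicates 1 to 3 *ALiX*, *HPS4*, *sesB* and *Sema5c* were called higher too, and *Clk* was not. *Ythdc1* had log2 fold changes of -0.55 in basal replicates 4 to 6 (adjusted p = 0.0762, edgeR's quasi-likelihood test), -0.92 after HS, -0.45 at 6 h and -0.71 at 24 h, and was called in basal replicates 1 to 3 at -0.81. *Drs* had 0.38, 0.47, 1.02 and 2.59 in the same order, *CG4757* 0.84, -0.94, 2.57 and 4.13, and *nito* -0.11, -0.37, -0.41 and -0.37. *CG4757* was called lower after HS and higher at 24 h, and *Drs* was called at 6 h and at 24 h. The change of effect was tested for basal against 24 h only.

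**Figure D5:**
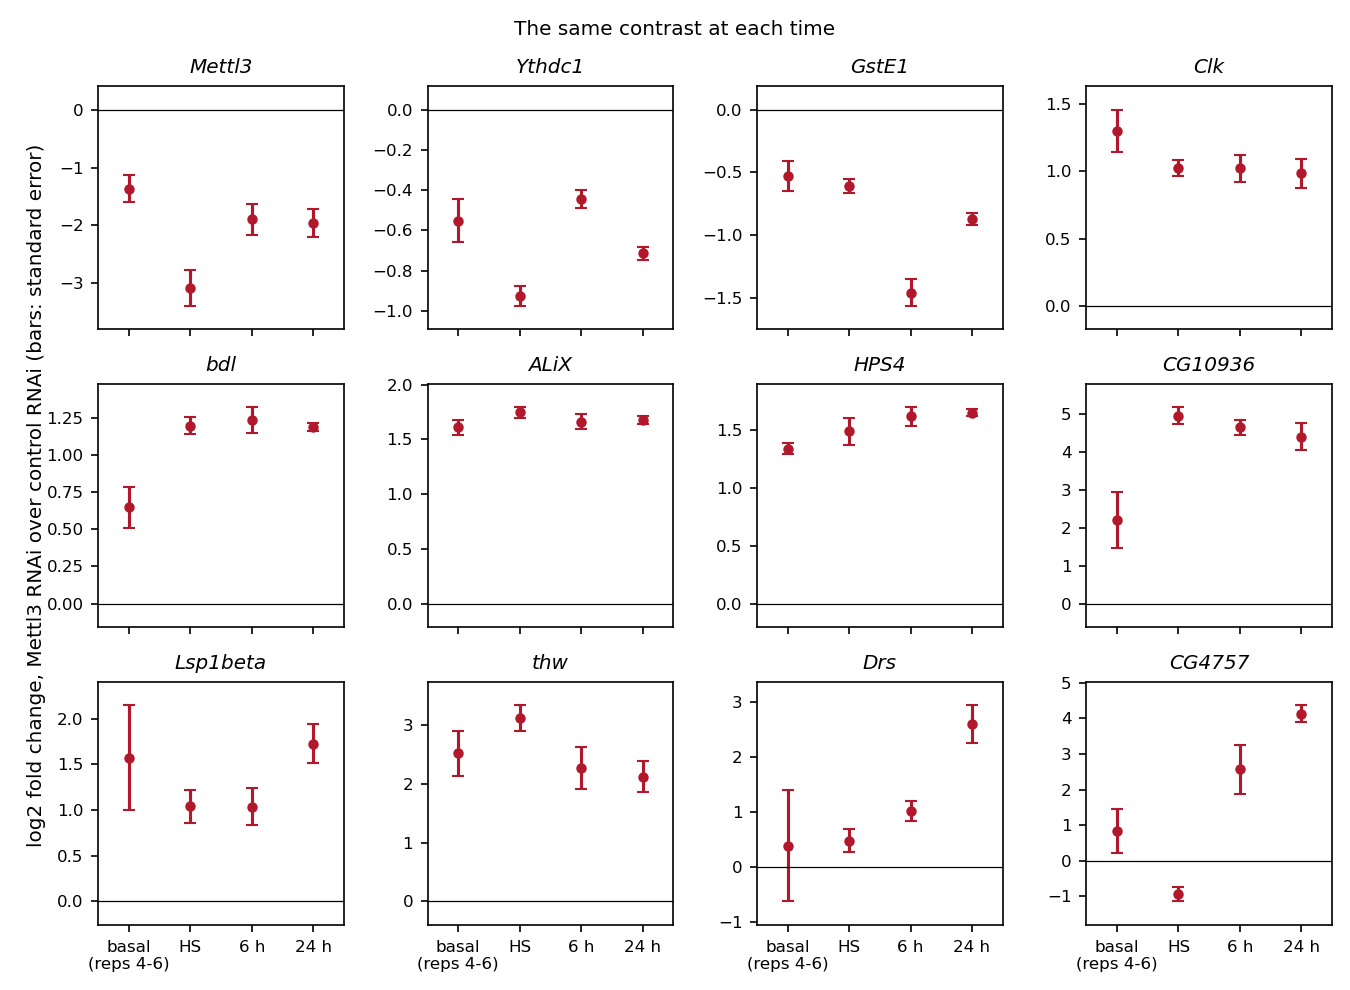
Log2 fold change, *Mettl3* RNAi over control, of 12 genes in basal conditions (replicates 4 to 6), directly after HS, and 6 h and 24 h after HS, with bars for the standard error and a line at 0. *ALiX* stays between 1.61 and 1.75, and *Drs* runs from 0.38 in basal brains to 2.59 at 24 h.

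The change of the *Mettl3* RNAi effect between basal and 24 h was tested as an interaction over 12 libraries. No gene of 10118 was called (0%) by edgeR's quasi-likelihood test, 1458 had an unadjusted p under 0.05, and the lowest adjusted p was 0.0795. DESeq2 called 88 genes. Without basal *Mettl3* RNAi replicate 2, which differed from replicates 1 and 3, 1404 genes were called by edgeR, and with basal replicates 4 to 6 in place of 1 to 3 there were 3. These were *CG32726*, *CG11368* and *Obp49a*, with differences of -10.44, -6.54 and -1.33 between the 24 h and the basal log2 fold changes, and *CG32726* is named here after its value was seen. Against basal replicates 1 to 3, where the log2 fold change of *Drs* was 0.81, the difference between effects of *Drs* was 1.76 (adjusted p = 0.309) and that of *CG4757* 3.26 (adjusted p = 0.309) in edgeR's test. Neither passed there, and *Drs* was among the 88 genes called by DESeq2, with a difference of 1.77 and an adjusted p of 0.0317. Of the 88, 31 differences were positive and 57 negative. The negative ones took in *Hsp70Aa* (-5.16), *Hsp70Ab* (-5.00), *Hsp26* (-3.72) and *Hsp68* (-3.30). Summed *Hsp70* copies stood at 1582 and 752 CPM in basal *Mettl3* RNAi replicates 1 and 3. The part of these basal libraries in the 88 calls, *Drs* among them, was not tested.

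Within each genotype, 24 h was set against basal replicates 1 to 3 in the same fit. In *Mettl3* RNAi brains 143 of 10118 genes (1.41%) were called, 14 higher and 129 lower at 24 h, and in control brains 1 gene (0.00988%) was. The *Mettl3* RNAi count takes in the uneven basal replicates. These contrasts share libraries with the comparison of genotypes, and for *Ythdc1* they gave 0.24 (adjusted p = 0.0888) in *Mettl3* RNAi brains and 0.16 (adjusted p = 0.318) in control brains by edgeR's quasi-likelihood test.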

How the data were processed

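The authors deposited 1 table of read counts, not normalized, with a line for each gene. Trimming had been done with TrimGalore, mapping to dm6 with STAR 2.7.3a and counting over exons of FlyBase genes with summarizeOverlaps. Replicates were not pooled, and the authors' own tests used DESeq2. Whether counting used the strand is not given in the sources used here. Libraries were grouped by their labels, the head IP libraries by the antibody in their titles, and none was left out.

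Genes with low counts were removed by filterByExpr of edgeR 4.0.16 (R 4.3.3) at its minimum count of 10 and minimum total of 15. Each comparison was then scaled by TMM and tested by edgeR's quasi-likelihood test (glmQLFTest), with Benjamini-Hochberg adjustment over all genes tested. Genes were called at an adjusted p under 0.05, and the SE is the size of the log2 fold change over the root of F. DESeq2 1.42.0 and limma 3.58.1 served as alternatives, beside other scalings, filters, a replicate block and leaving out each library. Positions came from the dm6 annotation, where 17500 of 17562 symbols were matched, and figures were drawn in Python 3.11.15 with matplotlib 3.10.9. Simulated counts were used to check the test: of 100 genes changed by 0.5 on the log2 scale at 24 h 46 were found, and of 100 changed by 1, 88 were, among 9666 genes.

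Samples, gene lists and tests were chosen with earlier results of these data known, so that no list's direction is independent evidence. Named are the writers, readers, heat shock genes and m6A-bearing genes that the study followed, the 12 genes that rose most and the 12 that fell most among the 821 that were called, reached a mean count of 100 in either genotype and did not overlap, and called members of the gene lists. Any other gene is marked as picked with its values in view. Not every called member of the gene lists is printed. Precision is limited by 3 libraries per genotype. The 6 libraries correlated pairwise at 0.982 or above on the log CPM scale, and no pair agreed within counting noise. Residuals of libraries with the same number correlated at 0.19, 0.22 and -0.19, so that the numbers were not taken as pairs.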

Additional observations from a re-analysis of the deposited data

How the results depend on the processing

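At 24 h, DESeq2 called 877 genes (719 shared), limma-voom 871, RLE factors 902, upper-quartile factors 871, library size alone 783, no filter 901 and a minimum count of 50 901. One fit over 23 brain libraries called 218, and leaving out single libraries gave 395 to 696. Numbers were not taken as pairs. With a replicate block 681 genes were called at 24 h (617 shared), 4 in basal conditions, 1206 directly after HS, 111 at 6 h and 0 for the change between basal and 24 h. The basal count, 47 in replicates 1 to 3, was 976 with DESeq2, 389 with replicates 1 to 6, 128 with replicates 4 to 6 (added after the data were seen) and 2 to 1811 without single libraries. Directly after HS it was 381 to 643 without single libraries. At 6 h it was 708 with DESeq2 and 77 to 214 without single libraries. For the change between basal and 24 h, 0 genes as reported, DESeq2 called 88, basal replicates 4 to 6 gave 3, and leaving out single libraries 0 to 1404, the most without basal *Mettl3* RNAi replicate 2 and 1 without 24 h *Mettl3* RNAi replicate 3. The cause of these moves was not tested.

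Of 170 called genes that were followed singly, not all of them printed above, 49 were called under all 15 alternatives. None of the 170 changed sign under any. The uncalled genes that did had log2 fold changes near 0: *Hsp70Ab* at -0.011 with upper-quartile factors, -0.0012 with no filter and -0.0093 in the fit of 23 libraries, *Hsp70Ba* at 0.0066 with library size alone, and *Hsp70Bbb* at -0.00069 in the fit of 23 libraries. Without single libraries, *Hsp70Aa* ranged from -0.063 to 0.178, *Hsp70Ab* from -0.216 to 0.366, *Hsp70Ba* from -0.061 to 0.075, *Hsp70Bb* from -0.026 to 0.0010, *Hsp70Bbb* from -0.102 to 0.184, *Hsp70Bc* from -0.103 to 0.210, *vir* from -0.037 to 0.117, *Mettl14* from -0.074 to 0.105 and *futsch* from -0.070 to 0.034. Changes under 0.5 on the log2 scale were often below what 3 libraries could show.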
